A study of Mus musculus with 16 samples.

Results

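The transcriptome of naïve CD4+ T cells (Tn) from mice lacking AIM2 was compared with that of the same cells in wild-type (WT) animals. All libraries that the deposited labels describe as naïve entered the comparison, which made 8 of the 16 libraries of the study, 4 from Aim2-/- and 4 from WT mice. Both genotypes were on the C57BL/6 background, bred in one facility and cohoused after weaning, and the cells were taken from the spleen and not cultured. Naïve cells, with low CD44 and high CD62L on their surface, were isolated immunomagnetically. The other 8 libraries, called Treg here, came from CD4+ T cells of the same genotypes kept for 48 h with anti-CD3/CD28 antibodies, TGF-beta and IL-2, and they serve only as a second set of libraries for the same contrast. The labels do not say whether a library came from 1 mouse or from several, so p-values measure the spread between these libraries. The knockout is carried by every cell of the mouse, and the comparison is between mouse lines, so that the loss of AIM2 and any other heritable difference between the lines cannot be told apart.

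AIM2 is a sensor of double-stranded DNA in the cytosol. On binding DNA it recruits the adaptor ASC and caspase-1 into an inflammasome, which matures IL-1 family cytokines and cleaves gasdermin D. Its gene belongs to the PYHIN family (also called the IFI200 or p200 family), an interferon-inducible group that in mice sits in a single cluster on chromosome 1. Many of its members, though not all, combine a pyrin domain with DNA-binding HIN domains. Naïve CD4+ T cells are resting, recirculating cells held in quiescence by factors such as KLF2, and they have not yet met their antigen. The comparison asked which transcripts already differed before any T cell receptor stimulus.

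Each deposited value is the expected count of reads that RSEM assigned to a gene, which need not be a whole number where reads are shared between genes. The naïve libraries held between 22516486 and 30811950 counts after rounding, and a gene was tested where 4 or more of the 8 libraries had 10 counts or more. Levels are given as CPM, the count scaled to library size with TMM factors, and differences as the log2 fold change of Aim2-/- against WT. The 12 markers of naïve CD4+ T cells all met this minimum, with Cd4 between 817 and 987 CPM. Their summed level was 8019 to 8902 CPM in WT and 8067 to 9373 CPM in Aim2-/-. The sum hides a split in Ccr7, which was at 1388, 1565, 413 and 417 CPM in WT replicates 1 to 4. In Aim2-/- Ccr7 was at 642 to 1131 CPM. Markers of other cells were mixed. Cd8a was at no more than 0.136 CPM and the B cell gene Ms4a1 at 0 in every library, but Cd8b1 was at 8.94 to 12.2 CPM and the immunoglobulin gene Ighm at 422 to 571 CPM. The summed level of B cell markers, nearly all Ighm, was 425 to 551 CPM in WT and 480 to 578 CPM in Aim2-/-, and that of NK and cytotoxic markers, with Prf1 at 27.9 to 41.4 CPM, was 65.1 to 88.1 CPM and 53.1 to 94.5 CPM. The summed level of 9 erythroid markers was 1.58 to 4.37 CPM in WT and 5.90 to 8.34 CPM in Aim2-/-, without overlap, while that of 17 myeloid and dendritic cell markers overlapped, at 20.5 to 25.9 CPM against 25.2 to 34.9 CPM. The part of these traces of other cells in the differences given here was not tested.

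The WT libraries fell into 2 pairs. On the first principal component, which held 35.8% of the variance, WT replicates 1 and 2 lay at -28.1 and -39.5 and WT replicates 3 and 4 at 42.8 and 26.2, with the Aim2-/- libraries between them, from -17.0 to 19.6. Ctla4, an inhibitory receptor of T cells named here after its values were seen, shows the split. It was at 79.9, 80.1, 12.9 and 17.6 CPM in WT replicates 1 to 4, and at 75.8, 81.0, 64.4 and 69.4 CPM in Aim2-/-. Fits without either WT pair are therefore given beside the lists of genes below.

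Of 13441 genes tested in Tn cells, 31 passed edgeR's quasi-likelihood test between genotypes (0.231% of the genes; Benjamini-Hochberg adjusted p under 0.05). Of these, 18 were higher in Aim2-/- (0.134% of the genes) and 13 were lower (0.0967%), and for all 31 the 4 Aim2-/- libraries did not overlap the 4 WT libraries. Non-overlap alone was common, as it held for 943 genes (7.02%), with 3.82% of the genes higher and 3.2% lower in every Aim2-/- library. Over all genes tested the median log2 fold change was 0.01, and 52.7% of them were above 0. With signs left out, the median was 0.15 over the 13292 genes other than Aim2 and those within 10 Mb of it. The 31 entries stand for 30 gene symbols, since Ide, the insulin-degrading enzyme, appears under 2 identifiers with the same values. Among them, 22 are annotated as coding and 23 differed by more than 1 on the log2 scale. For 7 of them, among which Ifi204, Ifi203-ps and Tmem181b-ps, the count minimum was met only in the genotype where they were high. Reads were shared with other genes in at least 4 libraries for 20 of the 31, and those values depend on how RSEM divided the reads.

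The number of calls moved with the libraries. It was 19, 18 and 17 without Aim2-/- replicate 2, 3 or 4 and 18 without WT replicate 1, and between 22 and 28 without any other single library. Without WT replicates 1 and 2 it was 392 (3% of the genes tested there, 269 higher and 123 lower), of which 28 were among the 31, and without WT replicates 3 and 4 it was 123 (0.934%, 31 higher and 92 lower), of which 26 were. With all 8 libraries, DESeq2 called 127 genes (0.945%) and limma-voom 30 (0.223%). Of the 31, 13 kept an adjusted p under 0.05 in all 8 edgeR fits that left out 1 library. Counting only the fits in which the gene was tested, 19 kept it. Some of these, such as Ifi204, Ifi203-ps and Tmem181b-ps, were tested in only 4 of the 8 fits. They missed the count minimum when a library of their high genotype was left out, so their dependence on those libraries was not tested.

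**Figure D1:**
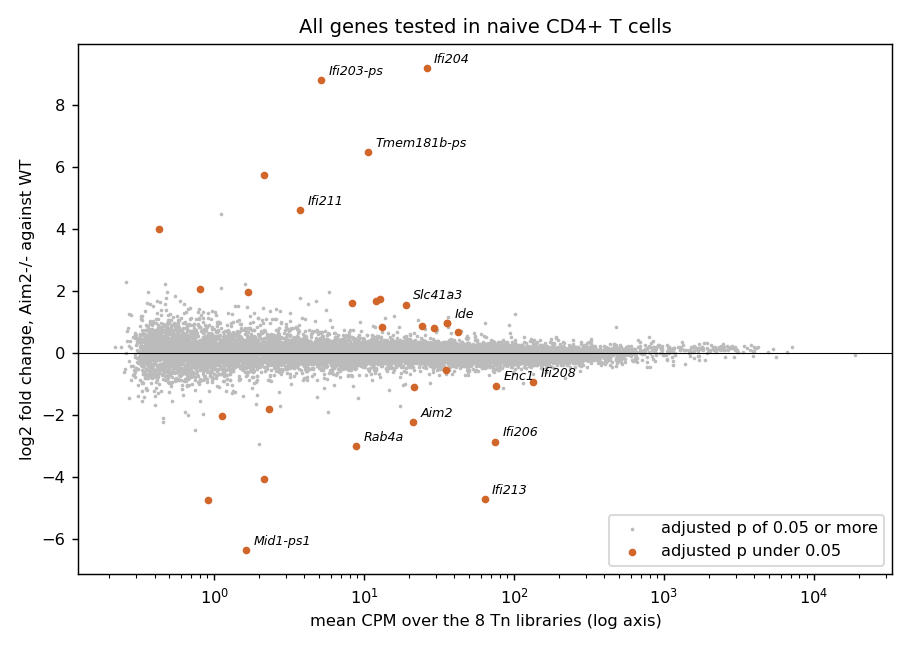
Log2 fold change of Aim2-/- against WT (vertical axis) plotted against the mean CPM over the 8 Tn libraries (horizontal log axis), 1 point per gene tested, with the 31 genes at an adjusted p under 0.05 in colour. Most of the 13441 genes lie close to 0, and the called genes farthest from 0 are Ifi204 at 9.19, Ifi203-ps at 8.79 and Tmem181b-ps at 6.47 above it and Mid1-ps1 at -6.35 below it.

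The targeted gene was examined first. Aim2 (ENSMUSG00000037860.15, chromosome 1 from 173350879 to 173466040 on GRCm38) was at 38.1, 37.0, 32.5 and 33.1 CPM in WT replicates 1 to 4 and at 9.41, 6.81, 6.60 and 7.02 CPM in Aim2-/-. All Aim2-/- libraries were below all WT libraries, but none was near 0. The difference of the means was 4.72-fold. The counts are per gene, so the position of the remaining reads within Aim2 was not analysed here.

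Around Aim2, the PYHIN genes moved in both directions. Of 12 family members tested, edgeR called 8, among them Aim2. Ifi206, Ifi213 and Ifi208 fell with Aim2, whereas Ifi204, Ifi203-ps, Ifi211 and Ifi207 rose. Ifi203, Ifi209, Ifi214 and Mndal did not pass the test. The 250 bases before the start sites of the 3 genes that fell with Aim2 are printed from RefSeq on GRCm38.p6. The core of the interferon-stimulated response element (ISRE), taken as GAAA, any 2 bases and GAAA, is in capitals. They lie at chr1:173491319-173491568 (minus strand) for Ifi206, chr1:173599273-173599522 (minus strand) for Ifi213 and chr1:173673415-173673664 (plus strand) for Ifi208. The window of Ifi211, a gene that rose, at chr1:173913047-173913296 (minus strand), is shown for contrast.
Ifi206: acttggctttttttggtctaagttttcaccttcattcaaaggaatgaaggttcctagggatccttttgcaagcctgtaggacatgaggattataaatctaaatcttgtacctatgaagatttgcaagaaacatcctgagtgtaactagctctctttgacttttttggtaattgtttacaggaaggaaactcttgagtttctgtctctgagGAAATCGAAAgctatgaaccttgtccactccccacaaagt
Ifi213: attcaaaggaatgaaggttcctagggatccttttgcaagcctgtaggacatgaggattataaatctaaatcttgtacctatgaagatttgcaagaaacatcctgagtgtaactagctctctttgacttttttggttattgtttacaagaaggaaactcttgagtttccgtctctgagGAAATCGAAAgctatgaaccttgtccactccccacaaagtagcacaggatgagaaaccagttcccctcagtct
Ifi208: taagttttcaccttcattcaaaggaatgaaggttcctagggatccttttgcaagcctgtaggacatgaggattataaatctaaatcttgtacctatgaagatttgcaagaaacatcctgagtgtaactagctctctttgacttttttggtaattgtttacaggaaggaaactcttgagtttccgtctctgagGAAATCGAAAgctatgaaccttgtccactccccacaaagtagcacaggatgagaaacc
Ifi211: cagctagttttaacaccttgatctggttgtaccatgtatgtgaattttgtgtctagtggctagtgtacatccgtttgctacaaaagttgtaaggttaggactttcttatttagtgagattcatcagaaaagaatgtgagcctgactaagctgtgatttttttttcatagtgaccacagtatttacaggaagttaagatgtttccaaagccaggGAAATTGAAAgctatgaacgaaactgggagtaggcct
Aligned without gaps, the windows of the 3 genes that fell with Aim2 were nearly the same. Ifi206 and Ifi213 shared 214 of 217 aligned bases (98.6%), Ifi206 and Ifi208 shared 231 of 232 (99.6%), and Ifi213 and Ifi208 shared 233 of 235 (99.1%). The window of Ifi211 matched these no better than 35.4%, and that of Aim2, which also fell, no better than 31.3%. Windows of the other family members, such as Ifi203, Ifi209, Ifi214 and Mndal, were not aligned. Whether the likeness is particular to genes that fell was therefore not tested, nor was any link between these windows and the levels. Each of the 4 printed windows held the ISRE core once, on the strand shown, against 978 of 32851 promoter windows in the RefSeq table (2.98%, both strands searched). The window of Aim2 (chr1:173420354-173420603, plus strand) held neither this motif nor TTCNNNGAA, the gamma-activated sequence, and over the family 9 of 12 matched genes held the ISRE core.

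Levels of the genes that fell were as follows. Ifi213 (chromosome 1 from 173566283 to 173599274) was at 122, 115, 119 and 135 CPM in WT and at 3.77, 6.11, 3.67 and 4.95 CPM in Aim2-/-, a 26.4-fold decrease. Ifi206 (173468485 to 173491041), 2.4 kb from Aim2, was at 114, 102, 160 and 148 CPM in WT and at 15.8, 18.1, 20.7 and 17.6 CPM in Aim2-/-. Neither gene came near overlap between genotypes, and their log2 fold changes were -4.72 (SE 0.17, adjusted p = 1.9e-07, edgeR) and -2.86 (SE 0.16, adjusted p = 6e-06, edgeR). Ifi208 (173673675 to 173698395) moved less, from between 153 and 195 CPM in WT to between 76.3 and 113 CPM in Aim2-/- (log2 fold change -0.94, SE 0.13, adjusted p = 0.012, edgeR). Its call was lost without Aim2-/- replicate 3 or 4 (edgeR adjusted p = 0.0998 and 0.0855). Ifi209, in the gap between Ifi213 and Ifi208, was lower in all Aim2-/- libraries with a log2 fold change of -0.98 (SE 0.19), but its adjusted p was 0.14 in edgeR's test. DESeq2 called it, as did edgeR without WT replicates 1 and 2, with a replicate block (edgeR adjusted p = 0.0027) and in 1 of the 8 fits without 1 library. With limma-voom its adjusted p was 0.155.

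The genes that rose came from near silence in WT. Ifi204 (173747293 to 173766943), which encodes a nuclear and cytosolic PYHIN protein, had 2, 1, 6 and 0 counts in WT against 992, 1938, 1337 and 1785 counts in Aim2-/-. In CPM, it went from no more than 0.255 in WT to 37.8, 61.4, 50.1 and 58.9 in Aim2-/- (log2 fold change 9.19, SE 0.40, adjusted p = 2.5e-06, edgeR). Ifi203-ps, annotated as a pseudogene (173776529 to 173798270), had 2 counts in all WT libraries together and 1187 in Aim2-/-, a ratio of 553 with a 95% counting interval from 153 to 4575. Ifi211 (173896345 to 173913046) was at 0.174, 0.237, 0.382 and 0.374 CPM in WT and at 5.94, 9.25, 6.97 and 6.59 CPM in Aim2-/- (log2 fold change 4.61, SE 0.28, adjusted p = 1.1e-05, edgeR). For all 3, every Aim2-/- library was far above every WT library.
Ifi207 was low in both genotypes, at no more than 0.119 CPM in WT and at 0.533 to 1.05 CPM in Aim2-/- (log2 fold change 3.99, SE 0.63, adjusted p = 0.035, edgeR). That call was lost without WT replicate 1, 3 or 4 (edgeR adjusted p = 0.10, 0.064 and 0.092).

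Per length, Mndal had the highest mean level of the 12 genes in both genotypes, at 158 TPM in WT and 191 TPM in Aim2-/- (TPM also corrects for exon length), and Ifi203 was at 105 and 106 TPM. In WT the next levels were 132.5 TPM for Ifi206, 132.4 TPM for Ifi209, 103 TPM for Ifi208, 55.05 TPM for Ifi213 and 30.65 TPM for Aim2, with Ifi204 at 0.0783 TPM. In Aim2-/- they were 62.5 TPM for Ifi209, 50.8 TPM for Ifi208, 42.4 TPM for Ifi204 and 17.05 TPM for Ifi206, with Aim2 at 6.16 TPM and Ifi213 at 1.97 TPM. Summed over the family, the level was 896 to 1185 CPM in WT and 641 to 879 CPM in Aim2-/-, so that the sum was also lower in every Aim2-/- library. Counts of Ifi206, Ifi213, Ifi208 and Ifi211 were not whole in any of the 8 libraries, nor were those of Ifi204 in 7, whereas Aim2 had whole counts in all of them.

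**Figure D2:**
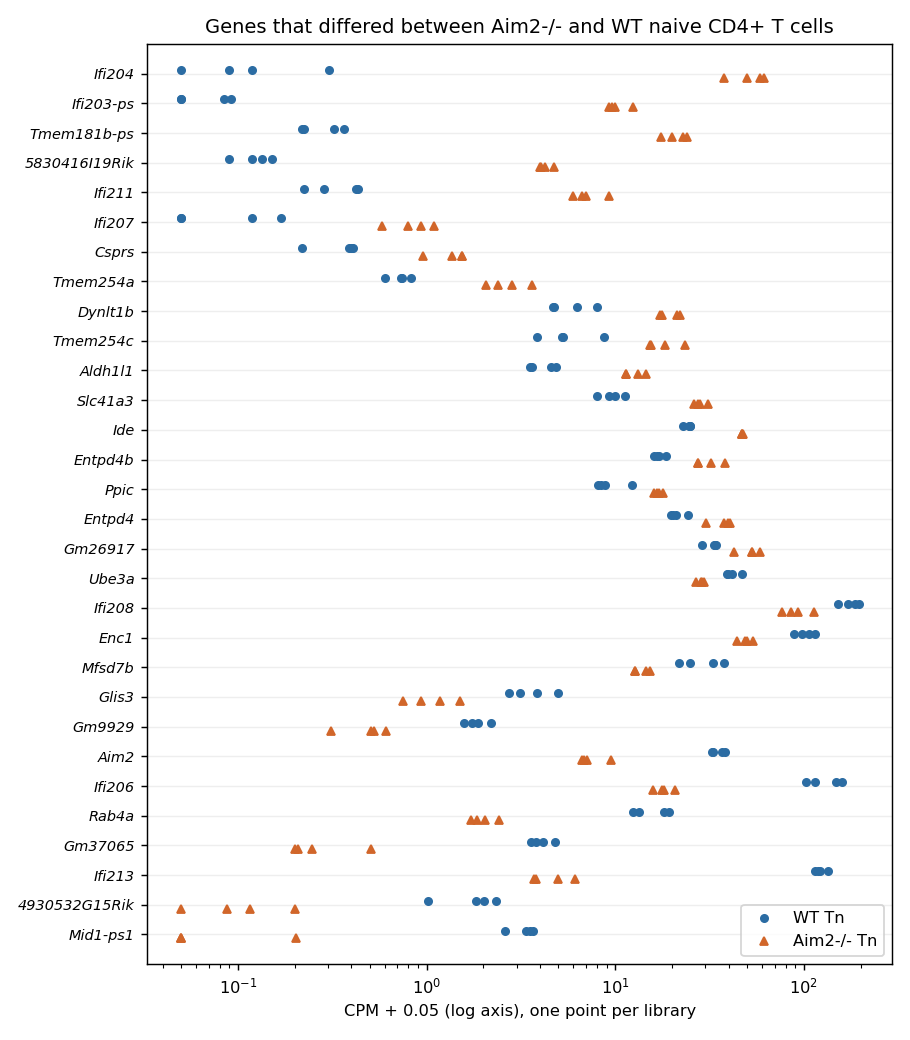
CPM of each gene called between genotypes (log axis, 0.05 added), with 1 point per Tn library, circles for WT and triangles for Aim2-/-, 4 libraries each, ordered by log2 fold change. The genotypes do not overlap for any gene shown; Ifi204 goes from at most 0.255 CPM in WT to at least 37.8 CPM in Aim2-/-, while Ide shifts from 22.8 to 24.9 CPM up to 46.9 to 47.8 CPM.

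Outside the family, 4 more called genes lay on the assembled chromosome 1, all of them lower in Aim2-/-. Gm37065, annotated as antisense and 1.43 Mb from Aim2, was at 3.75, 3.52, 4.75 and 4.11 CPM in WT and at 0.457, 0.158, 0.150 and 0.198 CPM in Aim2-/- (log2 fold change -4.06, SE 0.33, adjusted p = 0.00016, edgeR). The study prepared stranded libraries, but the strand setting of the counting is not given in the sources used here. Whether its reads were kept apart from those of the gene on the other strand is therefore not known. The noncoding 4930532G15Rik, 11.9 Mb away, had 28, 50, 42 and 67 counts in WT and 1, 0, 4 and 2 in Aim2-/- (adjusted p = 0.0043, edgeR). Gm9929, 2.47 Mb away, and Mfsd7b, which encodes a heme exporter and lies 17.5 Mb away, had log2 fold changes of -2.02 and -1.08 (SE 0.28 and 0.17, adjusted p = 0.014 and 0.032, edgeR). The call of Gm9929 was lost in 3 of the 8 fits without 1 library (those without Aim2-/- replicate 1 or 2 or WT replicate 1) and that of Mfsd7b in 5 (without any Aim2-/- library or WT replicate 1), with edgeR adjusted p up to 0.065 and 0.19.

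Smaller differences were also denser near Aim2. Within 10 Mb, with Aim2 and the PYHIN genes left out, 29 of 137 genes (21.2%) had an unadjusted p under 0.05, against 12.2% on the rest of chromosome 1 and 10.1% of all other genes, and their directions were even, with 14 higher and 15 lower. The nearest genes tested on the other side of Aim2 from the cluster were 718 to 967 kb away. Of these, Dusp23, a dual specificity phosphatase, had a log2 fold change of -0.89 (SE 0.32) and Igsf9, an immunoglobulin superfamily member, of -1.21 (SE 0.48), with adjusted p of 0.42 and 0.43 in edgeR's test. Pigm, Tagln2 and 4933439K11Rik had values of -0.20, 0.09 and 0.34, all with overlapping libraries. Of 8 SLAM family receptors and adaptors tested, cell surface receptors of lymphocytes whose genes lie mostly in this region, 6 were higher and none was called by edgeR, DESeq2 or limma-voom, with 2 at an unadjusted p under 0.05 and a median log2 fold change of 0.14, which was 0.07 without Aim2-/- replicate 3. Slamf6 was at 107 to 150.8 CPM in WT and 137 to 165 CPM in Aim2-/- (log2 fold change 0.28, SE 0.12, adjusted p = 0.46, edgeR).

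**Figure D3:**
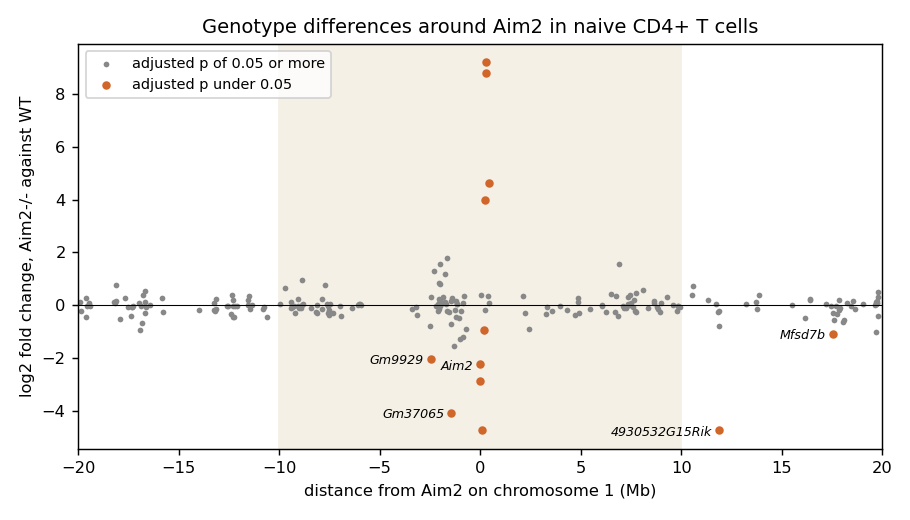
Log2 fold change of Aim2-/- against WT (vertical axis) against the distance from Aim2 along chromosome 1 in Mb (horizontal axis), 1 point per gene tested in Tn cells, with called genes in colour and the 10 Mb window shaded. The called PYHIN genes stand within 0.430 Mb of Aim2 on both sides of 0, and the other called genes in view, Gm37065, Gm9929, 4930532G15Rik and Mfsd7b, are all lower in Aim2-/-.

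The remaining 19 called entries lay on other chromosomes or a scaffold. Several came as neighbours or near copies that moved together. On chromosome 17, Tmem181b-ps (6438524 to 6467022), a transcribed pseudogene, went from 0.174, 0.317, 0.170 and 0.272 CPM in WT to 20.1, 24.0, 17.5 and 22.98 CPM in Aim2-/- (log2 fold change 6.47, SE 0.21, adjusted p = 1.8e-07, edgeR). Dynlt1b, a dynein light chain gene 2.23 kb away, rose from 4.65, 4.71, 7.98 and 6.22 CPM to 17.7, 17.2, 21.3 and 21.96 CPM (log2 fold change 1.73, SE 0.18, adjusted p = 0.0014, edgeR). Both have close copies in the genome, and their counts were not whole in any of the 8 libraries.
On chromosome 6, Slc41a3, a magnesium transporter gene (90604725 to 90646412), rose from 9.89, 7.92, 11.3 and 9.21 CPM to 26.1, 28.2, 31.2 and 27.3 CPM. Aldh1l1, a folate enzyme gene ending 4.52 kb before it, rose from between 3.47 and 4.79 CPM to between 11.4 and 14.5 CPM. Their log2 fold changes were alike, at 1.56 (SE 0.12) and 1.62 (SE 0.15), with adjusted p of 0.00013 and 0.00059 in edgeR's test.

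The pairs on chromosome 14 were less firm. Entpd4 and Entpd4b, copies of a nucleoside diphosphatase gene 188.2 kb apart, had log2 fold changes of 0.80 (SE 0.12) and 0.88 (SE 0.12), and Tmem254a and Tmem254c, 136.2 kb apart, of 1.97 (SE 0.25) and 1.67 (SE 0.24). Their edgeR adjusted p was between 0.0070 and 0.022, and none of the 4 had whole counts in any library. Tmem254a kept its call in all 8 fits without 1 library. The call of Entpd4b was lost in 3 (without Aim2-/- replicate 4 or WT replicate 1 or 3), that of Entpd4 in 6 (all but those without Aim2-/- replicate 3 or WT replicate 4) and that of Tmem254c in 6 (all but those without Aim2-/- replicate 1 or WT replicate 3), with edgeR adjusted p up to 0.13.

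Among single genes, Ide stood out for its even values (chromosome 19 from 37268743 to 37337852). Under each identifier it was at 22.8, 24.9, 24.7 and 24.9 CPM in WT and at 47.1, 47.1, 47.8 and 46.9 CPM in Aim2-/-. This was a 1.94-fold increase with little spread in either genotype (log2 fold change 0.96, SE 0.08, adjusted p = 0.00013, edgeR). Its counts were not whole in 5 of the naïve libraries, so the level under each identifier depends on how RSEM divided the reads. Rab4a, a small GTPase of early and recycling endosomes (chromosome 8 from 123805985 to 123835287), fell 8.02-fold. It was at 18.1, 19.3, 13.4 and 12.4 CPM in WT and at 1.68, 1.81, 1.99 and 2.37 CPM in Aim2-/-, with whole counts throughout (log2 fold change -3.003, SE 0.19, adjusted p = 1.9e-05, edgeR). Enc1, an actin-associated Kelch protein gene (chromosome 13 from 97241105 to 97253034), fell from 98.3, 89.0, 107 and 115 CPM to 49.0, 49.9, 44.5 and 54.0 CPM (log2 fold change -1.05, SE 0.10, adjusted p = 0.00059, edgeR). Rab4a, Enc1 and Ide kept their calls in every fit without 1 library.

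A pair of noncoding entries was close to silent in one genotype. The lincRNA 5830416I19Rik (chromosome 5 from 64044978 to 64050228) had 1 to 3 counts in WT libraries and 105 to 149 in Aim2-/-. Mid1-ps1, a pseudogene on chromosome Y, had 100, 84, 60 and 106 counts in WT and 4, 0, 0 and 0 in Aim2-/-. Their edgeR adjusted p was 2.5e-06 and 0.00094. Xist was at no more than 0.0340 CPM and the Y-linked Ddx3y at 64.1 CPM or more in every naïve library, so that the sexes were not mixed between genotypes.

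Of the calls off the assembled chromosome 1, those of Glis3, Csprs, Ube3a, Gm26917 and Ppic had the highest adjusted p. Glis3, a zinc finger transcription factor gene, was at 2.67 to 4.91 CPM in WT and 0.697 to 1.45 CPM in Aim2-/- (log2 fold change -1.80, SE 0.28). Csprs, on a scaffold, was at 0.170 to 0.356 CPM in WT and 0.914 to 1.499 CPM in Aim2-/- (log2 fold change 2.08, SE 0.32). Ube3a, an E3 ubiquitin ligase gene, fell from between 38.9 and 46.8 CPM to between 26.8 and 29.6 CPM (log2 fold change -0.55, SE 0.09). Gm26917, a lincRNA, and Ppic, which encodes cyclophilin C, rose by 0.67 (SE 0.11) and 0.85 (SE 0.14) on the log2 scale. The edgeR adjusted p of these 5 was between 0.027 and 0.042. The call of Ube3a was lost without any 1 of the 8 libraries, with edgeR adjusted p up to 0.18. Csprs kept its call only without Aim2-/- replicate 1, Glis3 only without Aim2-/- replicate 1 or WT replicate 3, Gm26917 only without Aim2-/- replicate 2 and Ppic only without WT replicate 2, with edgeR adjusted p up to 0.22 in the other fits.

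The same contrast in the Treg libraries, which share no library with the naïve ones, called 29 of 13221 genes (0.219%), 17 higher (0.129%) and 12 lower (0.0908%). At an unadjusted p under 0.05 were 2.3% of the genes, 50.1% were above 0, and the genotypes did not overlap for 2.23% (1.18% higher and 1.05% lower). The labels do not say whether the naïve and Treg libraries came from the same mice. Of the 31 naïve calls, 26 could be tested there, 23 had the same direction and 15 were also called by edgeR. The 23 include Ube3a and Mid1-ps1, which were not called there and had Treg log2 fold changes of -0.02 and -0.51. Mid1-ps1 was at 0.472 to 0.894 CPM in WT and 0 to 0.983 CPM in Aim2-/- Treg libraries, which overlap. Ide shows the repeat most plainly. Under each identifier it was at 87.3 to 97.5 CPM in WT and 171 to 186 CPM in Aim2-/- Treg libraries, with a log2 fold change of 0.96 in both states. Aim2, Ifi213, Ifi204, Rab4a, Slc41a3, Aldh1l1 and Dynlt1b also moved the same way, with Treg log2 fold changes of -2.12, -5.37, 6.20, -3.23, 1.70, 2.58 and 2.09 and edgeR adjusted p of at most 0.031. The entries with the opposite sign were Ifi211, Enc1 and Gm26917. In Treg libraries Enc1 was at 26.4 to 78.3 CPM in WT and 28.3 to 72.0 CPM in Aim2-/-, which overlap widely, and the interaction term for Enc1 had an adjusted p of 1.00 in edgeR's test.

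An interaction term over all 16 libraries, which tests whether the genotype mattered differently in naïve and Treg cells, was called for 3 of 14669 genes (0.0205%). Ifi211 was high in Aim2-/- naïve cells but in WT Treg cells, where it was at 2.09, 5.77, 1.98 and 25.3 CPM against 0.250 to 0.536 CPM in Aim2-/- (interaction -9.09, adjusted p = 0.0046, edgeR). Its own Treg comparison had an adjusted p of 0.33. Tmem181b-ps rose in both states but by less in Treg (log2 fold change 1.80), where it was at 2.28 to 3.89 CPM in WT and 9.26 to 11.8 CPM in Aim2-/-, and the interaction was -4.66 (adjusted p = 3.1e-07, edgeR). Wdfy1, which encodes an endosomal FYVE domain protein, was at 11.2 to 14.7 CPM in WT and 9.02 to 10.8 CPM in Aim2-/- naïve cells (log2 fold change -0.40, SE 0.12, adjusted p = 0.39, edgeR). Its difference was larger in Treg cells, with a log2 fold change of -1.61, and the interaction was -1.20 (adjusted p = 0.036, edgeR).

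Beyond single calls, 25 lists of genes with a shared role were described by their counts and medians. In 24 of them, all but the PYHIN family, no gene was called by edgeR, while DESeq2 called 6 genes in them and limma-voom none. In these lists edgeR made 22 calls without WT replicates 1 and 2 and 6 calls without WT replicates 3 and 4. Over all genes tested, DESeq2 called 0.945%, and edgeR called 3% and 0.934% without these WT pairs. The calls within lists were not tested against these shares. The medians of 8 of the 24 lists changed sign when some single library was left out. Cd28 and Ctla4 are each counted under 2 identifiers with values of their own, and entries with the same values are counted once. The lists are set beside the values over all genes tested, of which 10.3% had an unadjusted p under 0.05, 52.7% were higher in Aim2-/-, and the median log2 fold change was 0.01. The genotypes did not overlap for 7.02% of all genes tested. List members were mostly named for their small p, so that their separation adds no support of its own. The highest list medians were those of interferon-inducible GTPases and type I interferon-stimulated genes, and the lowest those of the TGF-beta and IL-2 receptor and the PI3K and mTOR pathways.

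**Figure D4:**
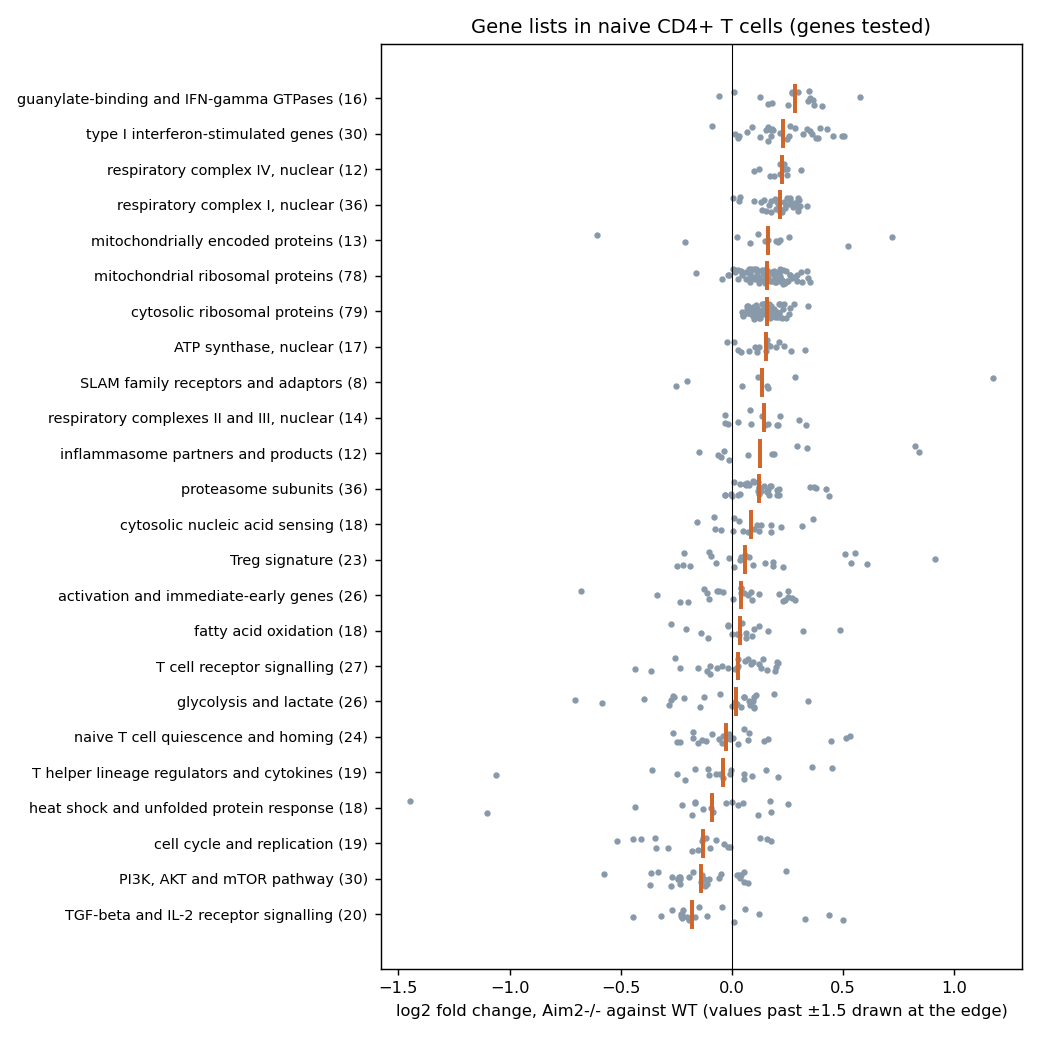
Log2 fold change of Aim2-/- against WT for each tested gene (points) of 24 gene lists, with the number of entries tested in brackets and the list's median as a vertical bar, ordered by median. The medians run from 0.28 for the guanylate-binding and IFN-gamma GTPases to -0.18 for TGF-beta and IL-2 receptor signalling, and no gene plotted was called by edgeR.

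No partner or product of AIM2 in the inflammasome was called by edgeR. Of 12 tested genes, 7 were higher, 3 had an unadjusted p under 0.05 and the median was 0.12. Casp1, the protease activated in inflammasomes, was at 5.07, 4.71, 4.12 and 3.63 CPM in WT and at 6.82, 6.46, 9.48 and 8.71 CPM in Aim2-/-. The libraries did not overlap, but the log2 fold change of 0.84 (SE 0.18) had an adjusted p of 0.16 in edgeR's test and of 0.0043 in DESeq2. The other genes with separated libraries were Gsdmd, the pore-forming target of that protease, and Casp4, the sensor of intracellular lipopolysaccharide, with log2 fold changes of 0.34 (SE 0.09) and 0.82 (SE 0.26) and adjusted p of 0.32 and 0.39 in edgeR's test. Without WT replicates 1 and 2, edgeR called Casp1 and Casp4 and the median of the list was 0.04, and without WT replicates 3 and 4 it called none and the median was 0.28. Pycard, which encodes the adaptor ASC, was at 45.9 to 76.8 CPM in WT and 58.2 to 81.9 CPM in Aim2-/-.

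Other sensors of cytosolic nucleic acids were higher in 14 of 18 cases, with a median of 0.08, and 2 had an unadjusted p under 0.05. These were Rnaseh2c, a subunit of the enzyme that removes ribonucleotides from DNA, at 21.7 to 28.1 CPM in WT and 29.0 to 36.0 CPM in Aim2-/-, and Zbp1, a sensor of Z-form nucleic acids, at 83.0 to 95.8 CPM and 100 to 140 CPM. Their log2 fold changes were 0.36 (SE 0.12) and 0.32 (SE 0.11), with adjusted p of 0.39 and 0.42 in edgeR's test. The median of this list was 0.009 without WT replicate 1 and 0.18 without WT replicates 3 and 4.

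Of 30 type I interferon-stimulated genes tested, 29 were higher in Aim2-/- and the median was 0.23, although only 4 had an unadjusted p under 0.05 and none was called by edgeR, DESeq2 or limma-voom. Bst2, which encodes the antiviral tether tetherin, was at 47.4, 49.3, 45.1 and 39.1 CPM in WT and at 55.2, 51.3, 90.2 and 59.5 CPM in Aim2-/- (log2 fold change 0.50, SE 0.17, adjusted p = 0.41, edgeR). Isg20, an antiviral exonuclease gene, was at 10.5 to 12.03 CPM in WT and at 15.1, 12.9, 21.03 and 13.1 CPM in Aim2-/-. For both, as for Ifi35 and Oas2, Aim2-/- replicate 3 was the highest of the 8 libraries. That library was also the highest for effector and memory T cell markers, with Ccl5 at 47.5 CPM against 9.06 to 27.02 CPM in the others, Nkg7 at 20.02 CPM against 5.26 to 9.84 CPM and Cxcr3 at 12.97 CPM against 2.06 to 8.10 CPM, and their part in the list's values was not tested. The median of the list was 0.08 without Aim2-/- replicate 3 (24 of 30 higher) and between 0.20 and 0.28 without any other single library, and it was 0.16 and 0.37 without WT replicates 1 and 2 or 3 and 4. In the Treg libraries 13 of 25 were higher, with a median of 0.009 and no call. The ISRE core was found in the promoter windows of 11 of 23 matched genes of this list.

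The guanylate-binding proteins and other IFN-gamma-inducible GTPases, which attack the vacuoles of intracellular microbes, had the highest median of the lists at 0.28. Of 16 tested genes, 15 were higher and 9 had an unadjusted p under 0.05, but none was called by edgeR, DESeq2 or limma-voom. Iigp1 was at 12.8, 16.03, 16.3 and 20.01 CPM in WT and at 19.9, 20.7, 29.8 and 26.9 CPM in Aim2-/- (log2 fold change 0.58, SE 0.17, adjusted p = 0.36, edgeR). Gbp5 was at 15.7, 18.3, 18.1 and 20.5 CPM in WT and at 23.5, 21.3, 23.6 and 23.6 CPM in Aim2-/- (log2 fold change 0.34, SE 0.10, adjusted p = 0.38, edgeR). Gbp5, Gbp6 and Tgtp2 separated the genotypes, with Tgtp2 at 104 to 119 CPM in WT and 120 to 176 CPM in Aim2-/-, whereas Iigp1 and Gbp2 overlapped at their edges. The median was between 0.20 and 0.35 in all fits without 1 library, and 0.27 and 0.28 without either WT pair, with Irf1 called by edgeR without WT replicates 1 and 2. In the Treg libraries 12 of 16 were higher, with a median of 0.22 and no call. The promoter window of Gbp5 is shown as an example of the motifs in this list, with the ISRE core (on the opposite strand) and TTCNNNGAA in capitals, from RefSeq on GRCm38.p6 at chr3:142496684-142496933 (plus strand).
Gbp5: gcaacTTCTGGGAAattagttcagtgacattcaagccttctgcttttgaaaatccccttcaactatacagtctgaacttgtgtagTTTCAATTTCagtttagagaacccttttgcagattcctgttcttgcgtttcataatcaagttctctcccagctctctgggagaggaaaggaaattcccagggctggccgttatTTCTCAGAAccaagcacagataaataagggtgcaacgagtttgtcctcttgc
Of 10 matched genes in the list, 9 held the ISRE core and 7 held TTCNNNGAA, against 2.98% and 7.02% of all 32851 windows, and 2 of 32 matched complex I genes held the ISRE core. A match describes the letters of the window and says nothing about binding.

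**Figure D5:**
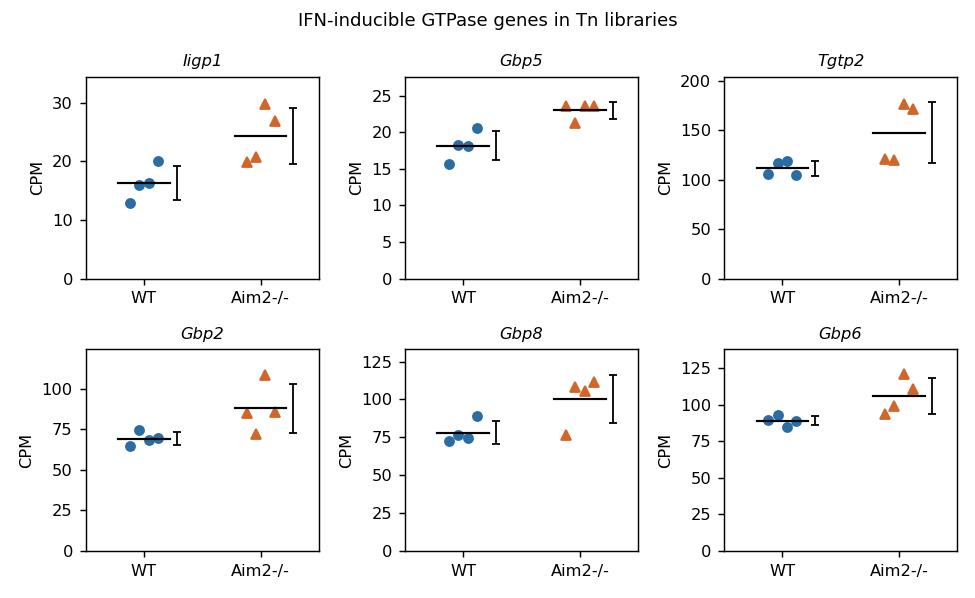
CPM of the 6 IFN-inducible GTPase genes with the smallest p, 1 point per Tn library (circles WT, triangles Aim2-/-, 4 each), with the mean as a horizontal line and bars of 1 SD beside it, on axes that start at 0. Gbp5, at 15.7 to 20.5 CPM in WT and 21.3 to 23.6 CPM in Aim2-/-, separates the genotypes, while Iigp1, Gbp2 and Gbp8 overlap.

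Proteasome genes were higher in 33 of 36 cases, with a median of 0.12 that was 0.05 without Aim2-/- replicate 3 and 0.04 (26 of 36 higher) after correction for GC content and length. The 5 with an unadjusted p under 0.05 were Psme2, Psmb10, Psme1, Psmb9 and Psmb8, which encode the PA28 activator and the subunits of the immunoproteasome, the interferon-inducible form that makes peptides for MHC class I. Psme2 was at 196, 206, 218 and 220 CPM in WT and at 249, 253, 338 and 288 CPM in Aim2-/- (log2 fold change 0.42, SE 0.11, adjusted p = 0.28, edgeR). Psmb10 and Psme1 likewise separated the genotypes, with log2 fold changes of 0.44 (SE 0.13) and 0.38 (SE 0.11). Psmb9 and Psmb8, at 0.37 and 0.35 (SE 0.16 each), overlapped, and none of the 36 genes was called by edgeR, DESeq2 or limma-voom.

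Genes of naïve T cell quiescence and homing were higher in 10 of 24 cases, with a median of -0.03. Without WT replicates 1 and 2 the median was 0.08 (14 of 24 higher) and edgeR called Ccr7, S1pr1, Klf3 and Btg1, and without WT replicates 3 and 4 it was -0.09 and none was called. With all libraries, the 3 with an unadjusted p under 0.05 were all higher. Klf2, the factor that keeps naïve cells quiescent and recirculating, was at 277, 284, 254 and 296 CPM in WT and at 353, 392, 414 and 354 CPM in Aim2-/-. Every Aim2-/- library exceeded every WT library, and the log2 fold change of 0.45 (SE 0.09) had an adjusted p of 0.13 in edgeR's test and of 0.0017 in DESeq2. Dapl1 and Igfbp4, both high in naïve T cells, were at 91.8 to 100 CPM and 580 to 719 CPM in WT and at 111 to 170 CPM and 760 to 1112 CPM in Aim2-/-. They had log2 fold changes of 0.51 (SE 0.12) and 0.53 (SE 0.13), with adjusted p of 0.24 and 0.25 in edgeR's test and of 0.025 and 0.021 in DESeq2. In the Treg libraries, the log2 fold changes of Klf2, Dapl1 and Igfbp4 were -0.25, 0.86 and -0.19, none of them called.

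Of 27 entries of T cell receptor signalling, 16 were higher, 5 had an unadjusted p under 0.05 and the median was 0.03. Trat1, a transmembrane adaptor that stabilises the receptor, was at 46.5, 45.6, 47.9 and 41.8 CPM in WT and at 37.1, 33.5, 34.3 and 36.6 CPM in Aim2-/- (log2 fold change -0.36, SE 0.08), with an adjusted p of 0.22 in edgeR's test and of 0.0053 in DESeq2. The adaptor Lat and the negative regulator Cd5, which were higher, had values of 0.21 (SE 0.08) and 0.20 (SE 0.09). In this list edgeR called Bcl10 without WT replicates 1 and 2. Of the activation and immediate-early genes 16 of 26 were higher, with a median of 0.04 and no gene at an unadjusted p under 0.05, nor called by edgeR, DESeq2 or limma-voom. Their summed level was 8455 to 15610 CPM in WT and 12290 to 15030 CPM in Aim2-/-. Without WT replicates 1 and 2 the median was 0.21 (19 of 26 higher) and edgeR called Dusp5, Tnfaip3 and Klf6, and without WT replicates 3 and 4 the median was 0.005 and edgeR called Myc.

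Genes of the Treg signature were higher in 15 of 23 cases with a median of 0.06, and 1 had an unadjusted p under 0.05. This was Izumo1r, the folate receptor family member of Treg cells, at 75.7, 79.0, 79.3 and 77.1 CPM in WT and at 109, 86.5, 153 and 101 CPM in Aim2-/- (log2 fold change 0.53, SE 0.15, adjusted p = 0.35, edgeR). The WT values were tight and the Aim2-/- values spread. Without WT replicates 1 and 2, edgeR called Ctla4, Tigit and Icos in this list, and without WT replicates 3 and 4 it called none, with medians of -0.0008 and 0.13. Of 19 T helper lineage regulators and cytokines, 7 were higher, with a median of -0.04. Rora, a regulator of Th17 cells, was at 13.3, 20.2, 6.24 and 6.12 CPM in WT and at 7.16, 5.57, 5.10 and 4.16 CPM in Aim2-/-. Its log2 fold change of -1.06 (SE 0.39, adjusted p = 0.43, edgeR) was -0.19 without WT replicates 1 and 2 and -1.62 without WT replicates 3 and 4, where edgeR called it and Stat5a.

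In the PI3K, AKT and mTOR pathway, which controls T cell growth and metabolism, 8 of 30 genes were higher, 7 had an unadjusted p under 0.05 and the median was -0.14. Mtor, the kinase itself, was at 63.1, 67.3, 65.3 and 66.9 CPM in WT and at 61.2, 56.8, 51.2 and 52.9 CPM in Aim2-/- (log2 fold change -0.24, SE 0.08, adjusted p = 0.41, edgeR). Inpp4b, a phosphoinositide phosphatase, Rptor, the scaffold of mTORC1, and Pdpk1, the kinase upstream of AKT, had log2 fold changes of -0.37 (SE 0.11), -0.37 (SE 0.12) and -0.33 (SE 0.12). Pik3cd, the catalytic subunit of PI3K in lymphocytes, went the other way, at 779 to 943 CPM in WT and 945 to 1099 CPM in Aim2-/- (log2 fold change 0.24, SE 0.09). None was called by edgeR, DESeq2 or limma-voom, and the median was between -0.19 and -0.10 over the fits without 1 library, and -0.08 and -0.25 without WT replicates 1 and 2 or 3 and 4.

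Of 20 genes of TGF-beta and IL-2 receptor signalling, 6 were higher and the median was -0.18, but this turned to 0.04 without WT replicates 1 and 2, where edgeR called Jak3 and Socs3, and was -0.24 without WT replicates 3 and 4, where it called Il21r. The 3 with an unadjusted p under 0.05 were Jak3, the kinase of the common gamma chain, Smad4, the shared mediator of TGF-beta signals, and Socs1, a feedback inhibitor of cytokine receptors. Jak3 was at 131 to 180 CPM in WT and 193 to 214 CPM in Aim2-/- (log2 fold change 0.44, SE 0.11, adjusted p = 0.27, edgeR). Smad4 was at 83.7, 87.8, 87.0 and 82.7 CPM in WT and at 76.0, 64.0, 63.9 and 69.7 CPM in Aim2-/- (log2 fold change -0.32, SE 0.08), with an adjusted p of 0.28 in edgeR's test and of 0.027 in DESeq2. Socs1 was at 13.3 to 17.7 CPM in WT and 20.1 to 27.1 CPM in Aim2-/- (log2 fold change 0.50, SE 0.13, adjusted p = 0.31, edgeR). All 3, which were named for their small p, separated the genotypes.

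Nuclear genes of the respiratory chain were higher in nearly every case but by little. All 36 tested genes of complex I, which takes electrons from NADH, and all 12 of complex IV were higher, with medians of 0.22 each, and so were 11 of 14 of complexes II and III (median 0.14) and 16 of 17 of ATP synthase (median 0.15). Without Aim2-/- replicate 3 the medians were 0.11 for complex I, 0.13 for complex IV, 0.06 for complexes II and III and 0.06 for ATP synthase. Uqcrq, of complex III, was at 29.8 to 31.4 CPM in WT and at 39.4, 31.3, 45.2 and 35.9 CPM in Aim2-/- (log2 fold change 0.30, SE 0.11, adjusted p = 0.42, edgeR). No gene of these lists was called by edgeR, DESeq2 or limma-voom, and 11 of the complex I genes had an unadjusted p under 0.05. Of the 13 proteins encoded by mitochondrial DNA, 11 were higher, with none at an unadjusted p under 0.05 and a median of 0.16 that was -0.02 without Aim2-/- replicate 2. Glycolysis and lactate genes were split, with 15 of 26 higher and a median of 0.02 that was -0.02 and -0.03 without WT replicates 1 and 2 or 3 and 4, and edgeR called Slc2a1 and Slc16a1 in the first of these fits. Eno3, an enolase, was at 19.2 to 22.2 CPM in WT and 21.4 to 28 CPM in Aim2-/- (log2 fold change 0.34, SE 0.11), and Pfkfb3, which makes the activator of phosphofructokinase, at 57.7 to 69.8 CPM and 47.2 to 55.5 CPM (log2 fold change -0.28, SE 0.09), both with an adjusted p of 0.39 in edgeR's test. Of 18 fatty acid oxidation genes, 12 were higher with a median of 0.04, but 4 of 18 (median -0.05) without WT replicates 1 and 2 and 16 of 18 (median 0.15) without WT replicates 3 and 4.

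These small and even shifts went along with gene length. Over all genes, the median log2 fold change was 0.14 in the shortest of 5 length classes of like size (exons of at most 1948 bases), then 0.08, 0.03 and -0.03, and it was -0.11 in the longest (7018 bases or more). Across 5 such classes of GC content it went from -0.07 to 0.08. All 79 cytosolic ribosomal proteins, whose median exon length was 1770 bases, were higher with a median of 0.16, as were 74 of 78 mitochondrial ribosomal proteins, and without Aim2-/- replicate 3 both medians were lower, at 0.08 and 0.07. After correction of each library for GC content and length, the median of the cytosolic ribosomal proteins was 0.03 (53 of 79 higher), that of the mitochondrial ribosomal proteins 0.06, that of complex I 0.10, that of complex IV 0.07, that of complexes II and III 0.01 (8 of 14 higher) and that of ATP synthase 0.07 (10 of 17 higher). The corrected medians were 0.28 for the GTPases, 0.19 for the type I interferon-stimulated genes and -0.09 for the PI3K and mTOR pathway, whose median exon length was 8190 bases. Whether the length trend came from the cells or from the libraries was not tested.

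Genes of the cell cycle and of heat shock had negative medians. Of 19 cell cycle and replication genes, 3 were higher, with a median of -0.13 that was -0.04 (9 of 18 higher) without WT replicates 3 and 4, and edgeR called Mki67 without WT replicates 1 and 2. Top2a, the topoisomerase of dividing cells, was at 8.29 to 10.6 CPM in WT and 5.55 to 9.44 CPM in Aim2-/- (log2 fold change -0.44, SE 0.18, adjusted p = 0.43, edgeR). Of 18 heat shock and unfolded protein response genes, 7 were higher, with a median of -0.09 that was 0.12 (13 of 18 higher) without WT replicates 1 and 2, where edgeR called Ddit3 and Xbp1, and -0.31 (3 of 18 higher) without WT replicates 3 and 4. Hsph1, a chaperone of the HSP110 family, was at 364, 342, 228 and 240 CPM in WT and at 199, 223, 210 and 237 CPM in Aim2-/-, and its log2 fold change of -0.44 was -0.13 without WT replicates 1 and 2 and -0.71, and called by edgeR, without WT replicates 3 and 4.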

How the data were processed

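RNA-seq values were the expected counts per gene that the authors deposited, made with STAR and RSEM on GRCm38 per the labels and the study's methods. Tool versions and the strand setting are not given in the sources used here. Counts were rounded, and genes with 10 counts or more in 4 or more of the 8 naïve libraries were kept. Genotypes were compared in edgeR 4.0.16 (TMM, robust quasi-likelihood test, Benjamini-Hochberg adjustment, R 4.3.3), which had been tested on simulated data. The study used limma-voom, and limma-voom (limma 3.58.1) and DESeq2 1.42.0 served as alternatives, beside other scalings, filters, GC and length correction, all 16 libraries in one fit, a replicate block and each library left out. SE was the log2 fold change divided by the root of F. Coordinates were those of GENCODE M21 (52489 of 53090 genes, 98.9%), and promoters those of RefSeq. A floor of 3 counts equals 0.097 to 0.133 CPM, and counting intervals and floors cover counting error only.
Genes were named by rule: Aim2, every called gene, up to 4 members of each list by smallest p, markers, and the 5 tested genes nearest Aim2 on each side. Outside that rule, Ctla4, Pycard, Gbp6, Tigit, Icos, Psmb8, Pik3cd, Wdfy1 and genes called only without a pair of WT libraries were named after their values were seen. Members and lists were chosen with earlier results of these data known. Same-numbered Tn libraries deviated together with correlations of 0.22, 0.06, 0.35 and 0.03, so the numbers were not taken to pair the libraries.
One or more items are not reported here.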

Additional observations from a re-analysis of the deposited data

Results flagged for a closer look

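In 62 groups of 4 libraries, the highest or lowest library was set against the others, and chance sets apart about 1 in 20 such groups. Aim2 was at 9.405 CPM in Aim2-/- replicate 1, against 6.60 to 7.02 CPM in the other Aim2-/- libraries. Ide, under both identifiers, was at 22.77 CPM in WT replicate 1, against 24.7 to 24.9 CPM in the other WT libraries, a small gap beside the level in Aim2-/-. In the same WT library Gm26917 was lowest at 28.98 CPM, against 33.5 to 34.1 CPM. In Aim2-/- replicate 1, Gm37065 was highest at 0.4569 CPM and Mid1-ps1 at 0.1523 CPM, against 0.150 to 0.198 CPM and 0 in the others. Csprs was lowest in WT replicate 3 at 0.1697 CPM, against 0.340 to 0.356 CPM.

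The genotype effect differed between naïve and Treg libraries for 3 genes by edgeR's interaction test. The difference, Treg minus naïve on the log2 scale, was -9.091 for Ifi211, -4.662 for Tmem181b-ps and -1.201 for Wdfy1. Ifi211 counts were not whole in any naïve library, and its WT Treg level was 25.3 CPM in replicate 4 against at most 5.77 CPM in the others.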

How the results depend on the processing

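The 31 naïve calls became 127 with DESeq2, 58 with all 16 libraries in one fit, 49 without a filter and 18 with 10 counts required in every library. They were 17 to 28 without 1 library. In fits chosen after seeing the data they were 392 without WT replicates 1 and 2 and 123 without WT replicates 3 and 4. The cause of these moves was not tested, beyond the fewer libraries in the last fits. With the replicate block 29 genes were called, 25 of them shared. The block gave 41 calls in Treg, and 3 of 8 naïve libraries correlated best with their own number. The 29 Treg calls became 52 with DESeq2 and 10 to 17 without 1 library, and the 3 interaction calls became 10 with DESeq2, 1 with the replicate block and 2 to 5 without 1 library.

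No called gene changed direction over 540 gene and setting pairs, and 89 of these lost the call. Of genes not called, Tagln2 turned to -0.06308 with GC and length correction, -0.05569 with that correction and the replicate block, and -0.106 without WT replicates 1 and 2. Without that pair 4933439K11Rik turned to -0.06695 and Ly9 to -8.553e-05, and without WT replicates 3 and 4 Mki67 turned to 0.1852. The median SE of a log2 fold change over all genes tested was 0.15.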
